A study of Mus musculus with 6 samples.

Results

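Transcripts of 10 genes that are mainly expressed in liver were followed in hind leg muscle of control (Con) and exercise (EX) mice. The 10 genes were Alb, Serpina1c, Serpina1e, Apoa1, Apoa2, Gc, Ahsg, Pzp, Cyp3a11 and Cps1, taken by symbol from a table of 16759 genes, and each had counts in all 6 libraries. They were selected on the difference in counts between EX and Con in these same libraries, so their differences between groups are described and are not offered as independent evidence. No filter on low values was set, and of the 10 genes 9 had a mean of at least 1 FPKM (fragments per kilobase of transcript, scaled to library depth) over the 6 libraries. All mice were male C57BL/6J animals aged 8 weeks at the start. Treadmill sessions of 60 min, 5 per week, were given to the 3 EX mice over 6 weeks (22 km per mouse), and they were killed 24 h after the final run. The 3 Con mice were not trained. The vessels were flushed with saline before the muscles were dissected, and fat between the muscles was removed. One library was made per mouse from a piece of muscle the size of a soybean, and neither the labels nor the methods name which muscle of the hind leg it came from. Counts on genes totalled between 13845362 and 16240431 per library. The markers of skeletal muscle were high in every library, with a summed level for 10 genes such as Ckm and Acta1 of 189404 to 195070 CPM (counts scaled to library size, with TMM factors) in Con and 205238 to 214231 CPM in EX.

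Hepatocytes make most of the proteins that circulate in blood plasma, and they release them through the secretory pathway. Albumin (Alb) is the most abundant of these and holds the osmotic pressure of plasma. Transport proteins, apolipoproteins and protease inhibitors make up much of the rest. Skeletal muscle is not known as a main site of their synthesis. Liver-enriched transcription factors of the HNF1, HNF4 and FOXA families act together on the promoters of these genes.

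RefSeq promoter sequences were matched to 9 of the 10 genes, all but Cps1. The 6 that hold GTTAAT or CAAAGTCC are shown so that these letters can be seen in place. The 150 bases before the annotated start are printed 5′ to 3′ in build GRCm38.p6, in lower case. Capitals mark 3 motifs, chosen after the sequences had been seen and searched on both strands: GTTAAT of HNF1, TGTTTGC of FOXA and CAAAGTCC of HNF4.
Alb, chr5:90460720-90460869, + strand: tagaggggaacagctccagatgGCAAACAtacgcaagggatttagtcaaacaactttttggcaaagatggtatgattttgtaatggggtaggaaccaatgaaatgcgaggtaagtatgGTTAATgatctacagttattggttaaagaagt
Gc, chr5:89457899-89458048, - strand: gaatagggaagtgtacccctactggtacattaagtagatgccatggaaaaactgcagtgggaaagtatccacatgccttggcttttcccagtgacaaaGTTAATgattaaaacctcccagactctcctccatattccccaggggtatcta
Pzp, chr6:128526721-128526870, - strand: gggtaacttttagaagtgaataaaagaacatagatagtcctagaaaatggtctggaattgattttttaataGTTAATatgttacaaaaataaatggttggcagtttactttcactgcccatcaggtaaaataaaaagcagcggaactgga
Serpina1c, chr12:103904951-103905100, - strand: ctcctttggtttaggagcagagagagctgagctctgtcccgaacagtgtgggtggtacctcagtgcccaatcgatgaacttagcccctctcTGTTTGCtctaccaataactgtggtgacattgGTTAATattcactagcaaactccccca
Serpina1e, chr12:103956898-103957047, - strand: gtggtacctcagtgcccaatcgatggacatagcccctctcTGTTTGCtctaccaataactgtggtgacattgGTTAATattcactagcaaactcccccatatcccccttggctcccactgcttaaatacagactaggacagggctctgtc
Cyp3a11, chr5:145879855-145880004, - strand: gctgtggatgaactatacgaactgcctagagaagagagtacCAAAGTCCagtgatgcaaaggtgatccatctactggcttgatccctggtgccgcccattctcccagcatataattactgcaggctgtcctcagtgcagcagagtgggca
The HNF1 letters lie 32 bases before the start of Alb, 52 before that of Gc, 79 before that of Pzp, 27 before that of Serpina1c and 78 before that of Serpina1e. The search covered the 250 bases before each start, of which the 150 nearest to it are printed above. In those 250 bases GTTAAT was found for 5 of the 9 genes, for 21 of 99 genes of the other liver lists (21.2%) and for 7.49% of 27018 genes, or in 6.43% of 32841 promoters of the same length, since a gene can have more than 1. TGTTTGC or its reverse complement, GCAAACA, was found for 5 of the 9 genes, namely Alb, Serpina1c, Serpina1e, Apoa1 and Ahsg, for 15.2% of the other liver genes and for 4.93% of all genes (4.30% of promoters). CAAAGTCC was found for Cyp3a11 alone of the 9, for 4.04% of the other liver genes and for 1.38% of all genes (1.20% of promoters). Cyp3a11 held no match of GTTAAT or TGTTTGC, and for Apoa2 none of the 3 motifs was found. No match of the 3 motifs overlapped another in the printed stretches. These matches are letters in a window and were not tested for binding.

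In EX muscle all 10 transcripts had lower means, by between 22.0% for Apoa2 and 60.5% for Cyp3a11. Every EX value lay under every Con value for all 10, whereas the groups were parted in this way for 13.3% of all 16716 genes tested. With edgeR's quasi-likelihood test over all genes, 9 of the 10 had an adjusted p-value under 0.05 and were lower, and Apoa2 did not, beside 5.96% of all genes. As this contrast was the basis for picking the genes, nothing further is drawn from these counts. In RNA from whole muscle pieces, fewer cells of a type and less RNA per cell cannot be told apart.

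Alb, Gc and Ahsg encode carriers of plasma. The level of Alb was 66.7, 68.6 and 72.6 CPM in Con replicates 1 to 3 and 40.8, 43.3 and 39.9 CPM in EX replicates 1 to 3. The means were 69.3 ± 3.04 (SD, n = 3) and 41.3 ± 1.73 CPM, an EX/Con ratio of 0.596 with a 95% interval from 0.555 to 0.641. The lowest Con library was thus well above the highest EX library, with a coefficient of variation of 4.39% in Con and 4.19% in EX. Gc, which encodes the vitamin D binding protein, had 6.55, 6.02 and 6.07 CPM in Con and 3.46, 3.43 and 2.59 CPM in EX. Its Con values were close together, and EX replicate 3 was the lowest of all. Ahsg encodes fetuin-A, a mineral-binding glycoprotein, and had 6.90, 7.23 and 6.39 CPM in Con against 2.89, 3.43 and 3.86 CPM in EX. The ratios of these genes were 0.510 (95% interval 0.417 to 0.623) for Gc and 0.497 (0.409 to 0.603) for Ahsg.

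The 2 apolipoproteins of high-density lipoprotein were lower by less. Apoa1, its main structural protein, had 6.34, 5.89 and 8.20 CPM in Con and 3.96, 5.01 and 4.30 CPM in EX. Con replicate 3 stood above the other Con libraries, and the SD in Con was 1.23 CPM on a mean of 6.81. Apoa2, the second apolipoprotein of these particles, had 3.06, 2.41 and 2.63 CPM in Con and 2.39, 1.97 and 1.96 CPM in EX. The highest EX value of Apoa2 was just under its lowest Con value. Its ratio was 0.784 with a 95% interval from 0.603 to 1.02, which includes no difference, and that of Apoa1 was 0.648 (0.535 to 0.785). Apoa2 rested on 31 to 43 counts per library, so that counting error alone is wide.

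The 3 protease inhibitors spanned a broad range of ratios. Serpina1c and Serpina1e encode mouse forms of alpha-1-antitrypsin. Serpina1c had 11.6, 10.2 and 8.77 CPM in Con and 4.52, 5.58 and 4.81 CPM in EX, a ratio of 0.490 (95% interval 0.414 to 0.580). Serpina1e had 10.5, 10.5 and 7.95 CPM in Con and 6.97, 6.15 and 7.15 CPM in EX, a ratio of 0.703 (0.598 to 0.826). Both were lowest in Con replicate 3 among the Con libraries. Pzp encodes a broad protease inhibitor of the alpha-2-macroglobulin family. It had 6.90, 6.34 and 7.01 CPM in Con and 2.89, 2.79 and 2.85 CPM in EX, the tightest EX values of the 10 genes, with a coefficient of variation of 1.74%. At 44 to 46 counts per EX library, counting error alone would usually give a wider spread than that of Pzp in EX. The ratio of Pzp was 0.422 (0.347 to 0.514).

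Cyp3a11 and Cps1 encode enzymes that stay inside the hepatocyte and are no plasma proteins. Cyp3a11, a cytochrome P450 that oxidises drugs and steroids, had 4.77, 5.64 and 4.32 CPM in Con and 1.88, 2.16 and 1.77 CPM in EX. Its ratio of 0.395 (95% interval 0.312 to 0.501) was the lowest of the 10. Cps1, the mitochondrial enzyme that starts the urea cycle, had 4.27, 4.75 and 4.07 CPM in Con and 1.88, 2.03 and 1.83 CPM in EX, a ratio of 0.440 (0.347 to 0.558). The EX counts were 28 to 34 for Cyp3a11 and 29 to 32 for Cps1.

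Compared per length of transcript, Alb had 40.7 ± 2.12 FPKM in Con and 23.3 ± 0.832 in EX (SD, n = 3). Apoa2 came next in both groups, with 13.9 ± 1.57 and 10.3 ± 1.57 FPKM. In Con, the values of Apoa2 overlapped those of Apoa1, those of Apoa1 overlapped those of Serpina1c, and those of Serpina1c overlapped those of Serpina1e. Below them Ahsg, Gc, Cyp3a11, Pzp and Cps1 followed in Con without overlap between neighbours, down to 0.853 ± 0.0681 FPKM for Cps1. In EX, Apoa2 no longer overlapped Apoa1, and Serpina1e lay above Serpina1c in all libraries. Only Apoa1 and Serpina1e overlapped as neighbours there. The lower ranks from Ahsg to Cps1 had the same order in both groups, and Cps1 ended at 0.360 ± 0.0200 FPKM in EX.

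**Figure D1:**
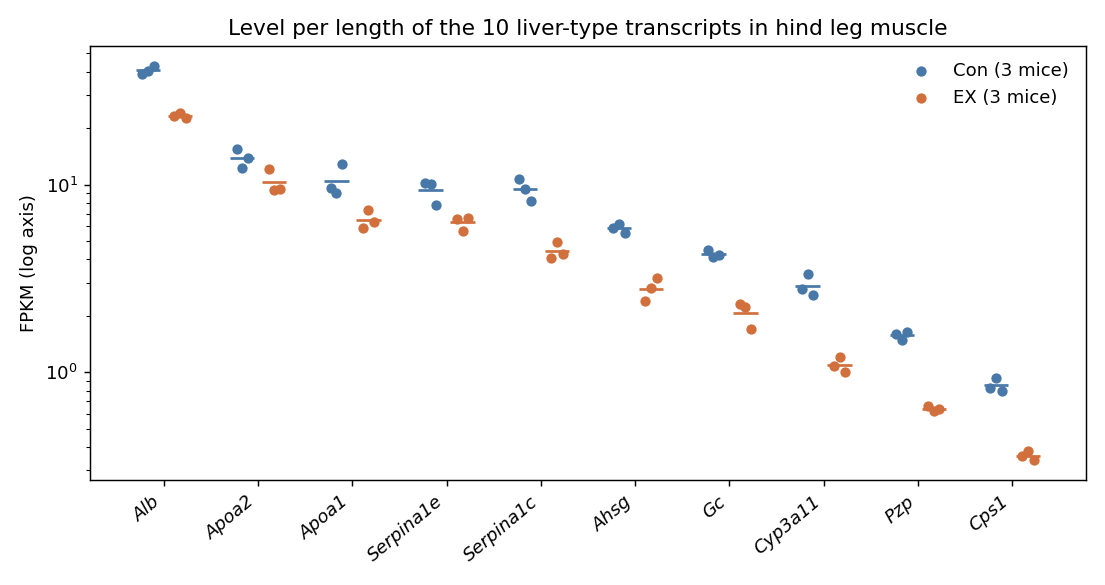
Level per length of the 10 transcripts, in FPKM on a log axis, with 1 point per mouse (Con blue, EX orange) and a line at the mean of each group. The genes are ordered by their mean over all 6 libraries, and the 3 EX points lie under the 3 Con points for each gene, from 40.7 and 23.3 FPKM on average for Alb to 0.853 and 0.360 for Cps1.

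The question was then whether 1 common EX/Con factor could describe all 10 transcripts. In a negative binomial model with edgeR's dispersion for each gene, the best common factor was 0.563 with a 95% interval from 0.535 to 0.593. A model with a separate factor for each gene described the counts better (likelihood ratio chi-square 38.7 with 9 degrees of freedom, p = 1.3e-05). The genes had been picked for their direction and not for how even their ratios were, but the picking used the same contrast. Cyp3a11, Pzp and Cps1 lay under the common factor by more than their 95% intervals allow, at -0.51, -0.42 and -0.36 from it on the log2 scale. Serpina1e and Apoa2 lay above it, at 0.32 and 0.48. The intervals of Serpina1c, Ahsg, Gc, Alb and Apoa1 included the common factor. With any 1 of the 10 genes left out, the common factor ranged from 0.535 to 0.573 and the p-value of unevenness from 8.1e-06 to 1.4e-04. These fits without 1 gene were chosen after the data had been seen.

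**Figure D2:**
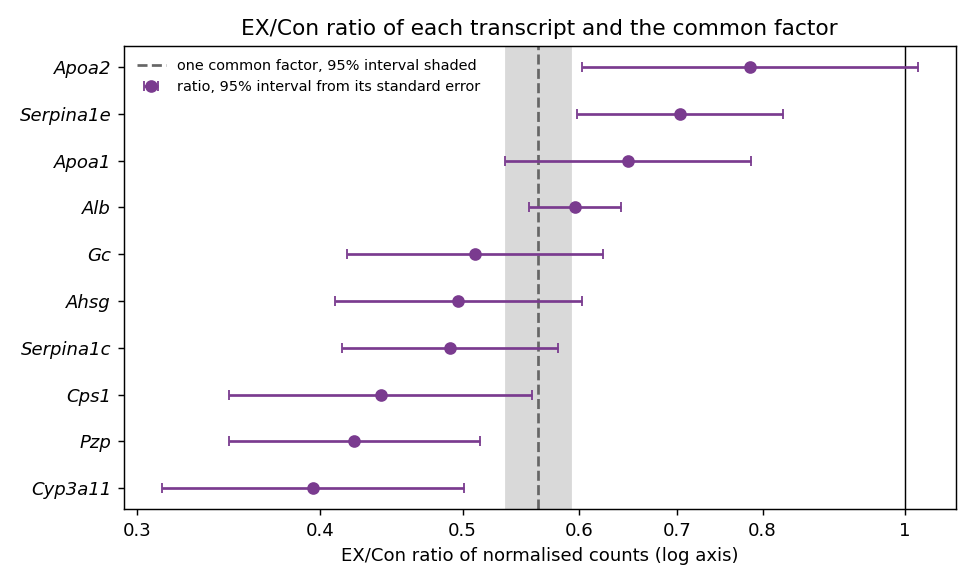
EX/Con ratio of normalised counts for each transcript on a log axis, with its 95% interval from the standard error of the edgeR fit. The dashed line is the common factor of 0.563 with its 95% interval shaded, and the line at 1 marks no difference. The intervals of Cyp3a11, Pzp and Cps1 end below the dashed line, and those of Serpina1e and Apoa2 begin above it.

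The proportions of the 10 transcripts among mice of 1 group were tested apart. The dispersions used were estimated from the spread among these same 6 libraries. A chi-square near its degrees of freedom is therefore partly built in. Picking genes on a contrast between groups can also favour genes with little spread within a group. When each library was given 1 factor for all 10 genes, the chi-square for the remaining differences was 21.1 with 18 degrees of freedom in Con (p = 0.277) and 9.22 with 18 degrees of freedom in EX (p = 0.954). These p-values do not show that the proportions were equal. With Poisson error alone, the chi-square p-values were 0.031 in Con and 0.891 in EX. The library factors themselves ranged from 0.993 to 1.01 in Con and from 0.976 to 1.04 in EX. Summed over the 10 genes, the level was 127.6, 127.5 and 128.1 CPM in Con replicates 1 to 3 and 71.7, 75.8 and 71.0 CPM in EX replicates 1 to 3. The sum thus varied by less than 1 CPM among the Con mice. With 1794 to 2045 summed counts per Con library, counting error alone would usually give a wider spread. This closeness is therefore not read as a constant level. The EX/Con ratio of the sum was 0.570, or 0.539 without Alb. Together the 10 genes took 0.0130% to 0.0131% of a Con library and 0.00698% to 0.00736% of an EX library.

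The make-up of this sum can be read as the share of each gene. Alb took 54.3% ± 2.27 (SD, n = 3) of the summed level in Con and 56.7% ± 0.482 in EX, with overlapping values. The share of Pzp was 5.29% ± 0.275 in Con and 3.91% ± 0.195 in EX, that of Cyp3a11 3.84% ± 0.533 and 2.66% ± 0.177, and that of Cps1 3.42% ± 0.281 and 2.63% ± 0.0477. For these 3 genes all EX shares lay under all Con shares. Apoa2 moved the other way, from 2.11% ± 0.260 to 2.90% ± 0.386, with all EX shares above all Con shares. The shares of Serpina1c, Serpina1e, Apoa1, Gc and Ahsg overlapped between the groups.

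**Figure D3:**
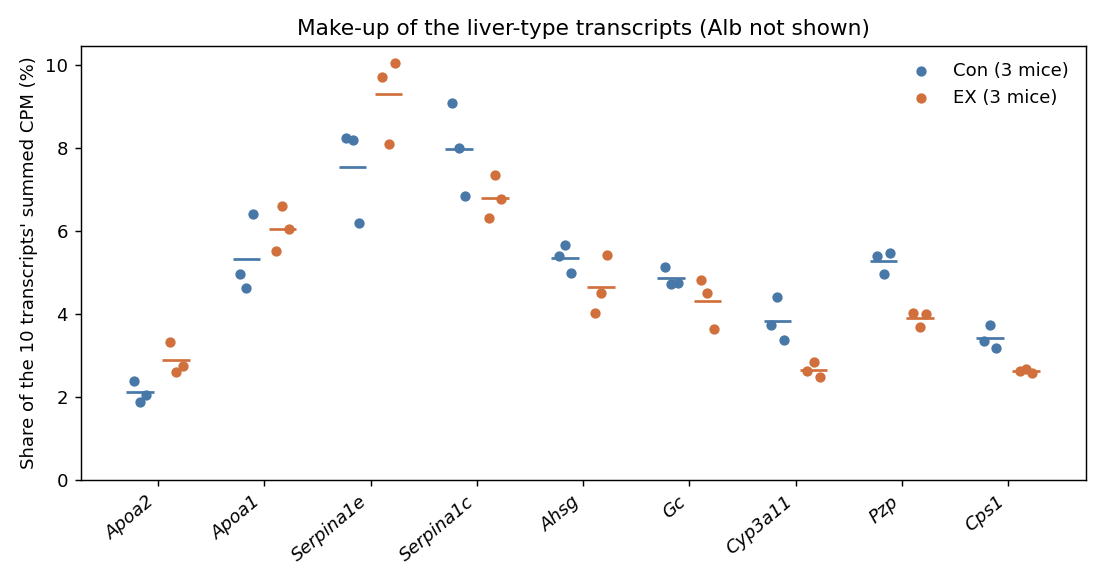
Share of each transcript in the summed CPM of the 10, in percent, with 1 point per mouse and a line at the group mean. Alb, at 54.3% in Con and 56.7% in EX, is not drawn. The EX points of Pzp, Cyp3a11 and Cps1 lie under their Con points, and those of Apoa2 lie above them.

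Serpina1c and Serpina1e belong to a cluster of 5 closely similar genes. Their estimated counts were not all whole numbers, while those of the other 8 genes were. Over 1242 coding bases the paralogs Serpina1a to Serpina1e differ pairwise at 19 to 46 positions, an identity of 96.3% to 98.5%. Serpina1c and Serpina1e differ at 44 positions. The coding sequences were read as the longest open frame in transcripts of GENCODE release M21. The window of 60 bases with the most differences, positions 1101 to 1160 of the Serpina1c coding sequence, is shown because reads from it can tell the paralogs apart, and capitals mark the 18 positions where the 5 genes are not all alike.
Serpina1a: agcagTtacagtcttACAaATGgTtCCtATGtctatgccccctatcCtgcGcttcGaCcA
Serpina1b: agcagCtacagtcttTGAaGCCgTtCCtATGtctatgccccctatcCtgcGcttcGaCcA
Serpina1c: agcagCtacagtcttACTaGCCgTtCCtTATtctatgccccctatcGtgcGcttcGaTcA
Serpina1d: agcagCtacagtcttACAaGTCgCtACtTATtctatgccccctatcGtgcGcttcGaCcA
Serpina1e: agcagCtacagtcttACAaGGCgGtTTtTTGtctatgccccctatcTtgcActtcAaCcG
This stretch surrounds the reactive centre, the part of the inhibitor that the target protease cleaves. Over the whole coding sequence 86 positions vary, so that reads from other parts may fit more than 1 paralog, and the values of each single paralog are uncertain.

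The paralogs that were not among the 10 were lower in EX as well. In the counts of the authors' table, Serpina1b had 97.7, 94.6 and 98.7 in the Con libraries against 53.6, 62.8 and 58.3 in EX, and fell by 0.79 on the log2 scale (SE 0.14, adjusted p = 4.3e-05, edgeR's quasi-likelihood test). Serpina1d had a log2 fold change of -1.001 (adjusted p = 6.2e-05) and Serpina1a by 0.93 (adjusted p = 7.5e-05). Summed over all 5 paralogs, the level was 37.3, 35.6 and 31.9 CPM in Con and 18.9, 20.7 and 20.0 CPM in EX, a ratio of 0.569. Within the family, Serpina1c made up 29.1% ± 1.90 (SD, n = 3) in Con and 24.9% ± 1.72 in EX, and Serpina1e 27.5% ± 2.31 and 34.1% ± 3.84. The groups did not overlap for either share. With the 5 paralogs summed as 1 gene, chosen after the data had been seen, 1 factor still described the 9 entries less well than separate ones (chi-square 29.9 with 8 degrees of freedom, p = 2.2e-04).

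Other genes of the liver were taken from 3 lists that were not drawn up by how the genes moved, although results of these libraries were known by then. They hold 128 tested genes, of which 32 had an adjusted p-value under 0.05 and were lower in EX and 2 were higher. The 32 genes are 25.0% of the 128, where 5.96% of all genes tested were lower and 6.08% higher. The median log2 fold change of the 128 genes was -0.55, and that of all genes tested was -0.00353. All EX values lay under all Con values for 52 of them and above for 5, where 13.3% of all genes were parted in the first way and 13.4% in the second. Among the 39 genes with a mean count of at least 20, 19 were called lower and 2 higher, beside 8.07% and 8.11% of all genes at that level. The number of calls depended on single libraries, with 17 lower without EX replicate 1 and 21 without Con replicate 1.

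Among 58 secreted proteins of the liver, 21 were lower and 1 was higher, with a median log2 fold change of -0.62. The 3 chains of fibrinogen, the clotting protein, fell together. For Fga, 78, 92 and 102 counts in Con stood against 47, 48 and 48 in EX, and it fell by 0.98 on the log2 scale (SE 0.15, adjusted p = 2.3e-06, edgeR's quasi-likelihood test). Fgb fell by 0.99 (adjusted p = 1.4e-05) and Fgg by 0.79 (adjusted p = 2.0e-03). Apob, the structural protein of very-low-density lipoprotein, went from 68, 74 and 92 counts in Con to 37, 40 and 34 in EX and fell by 1.12 (adjusted p = 1.2e-06). Itih2, a hyaluronan-binding plasma protein, fell by 1.40 (adjusted p = 3.5e-05), from 34 to 39 counts in Con to 12 to 17 in EX. Mug2, a relative of Pzp, fell by 1.69 (adjusted p = 2.2e-04), but not all of its counts were whole, nor were those of Mug1, so that the values of these similar genes are uncertain. Serpina3k fell by 0.69 (adjusted p = 5.9e-06), from 184, 178 and 206 counts to 113, 105 and 146. Hrg fell by 1.26 (adjusted p = 8.3e-03), Serpinf2, the inhibitor of plasmin, by 1.38 (adjusted p = 8.6e-03) and Serpind1 by 1.13 (adjusted p = 0.039), each with at most 24 counts per library.

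Some secreted proteins on this list had other values. Vtn (vitronectin), with 428 to 557 counts per library, fell by 0.26 (adjusted p = 2.5e-03, edgeR's quasi-likelihood test). Trf, the transferrin gene, with 436, 437 and 494 counts in Con against 481, 500 and 489 in EX, differed by 0.05 on the log2 scale (adjusted p = 0.663). Mup20, a major urinary protein, had a log2 fold change of -0.30 (adjusted p = 0.148). Hp (haptoglobin) was the gene of the list that rose, by 0.69 (adjusted p = 9.6e-04), from 40, 56 and 54 counts in Con to 77, 82 and 92 in EX. Hp is a gene outside the rule for named genes and is given because it was the only such call.

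Of 51 liver enzymes, 9 were lower and 1 was higher, with a median log2 fold change of -0.39. The alcohol dehydrogenase gene Adh1 went from 546, 694 and 672 counts in Con to 498, 532 and 478 in EX, and fell by 0.39 after scaling (SE 0.06, adjusted p = 3.8e-06, edgeR's quasi-likelihood test). Several cytochromes P450 were at low counts. Cyp2c29 went from 19, 25 and 22 counts to 5, 2 and 12 (log2 fold change -1.83, adjusted p = 3.4e-04), and Cyp3a25 had 8 to 12 in Con and 2 to 7 in EX (adjusted p = 0.043). For Cyp4a14, 4, 8 and 5 counts in Con stood against 1 in each EX library (adjusted p = 0.036). Ugt1a1, whose counts were not all whole and whose groups overlapped, fell by 1.71 (adjusted p = 0.011). Cyp2e1 rose by 0.40 (adjusted p = 2.8e-04), from 189, 237 and 239 counts to 293, 307 and 308. Cyp27a1, the gene of the 3 lists with the most counts, at 156.7 ± 9.11 (SD, n = 3) CPM in Con, had a log2 fold change of 0.07 (adjusted p = 0.389), and Asl of the urea cycle had 0.18 (adjusted p = 0.413).

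The 19 regulators and transporters of hepatocytes were at low levels, and none reached a mean count of 20. Their summed level was 8.11 to 8.97 CPM in Con and 5.01 to 5.50 CPM in EX. Of the 19, 16 had a log2 fold change below 0, with a median of -0.96, and 2 had an adjusted p-value under 0.05. These were Abcb11, the bile salt export pump, with 10, 9 and 11 counts in Con against 2, 2 and 4 in EX (adjusted p = 0.012, edgeR's quasi-likelihood test), and Slco1b2, an uptake transporter, with 22, 28 and 19 counts in Con against 8, 10 and 12 in EX (adjusted p = 3.4e-03).

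**Figure D4:**
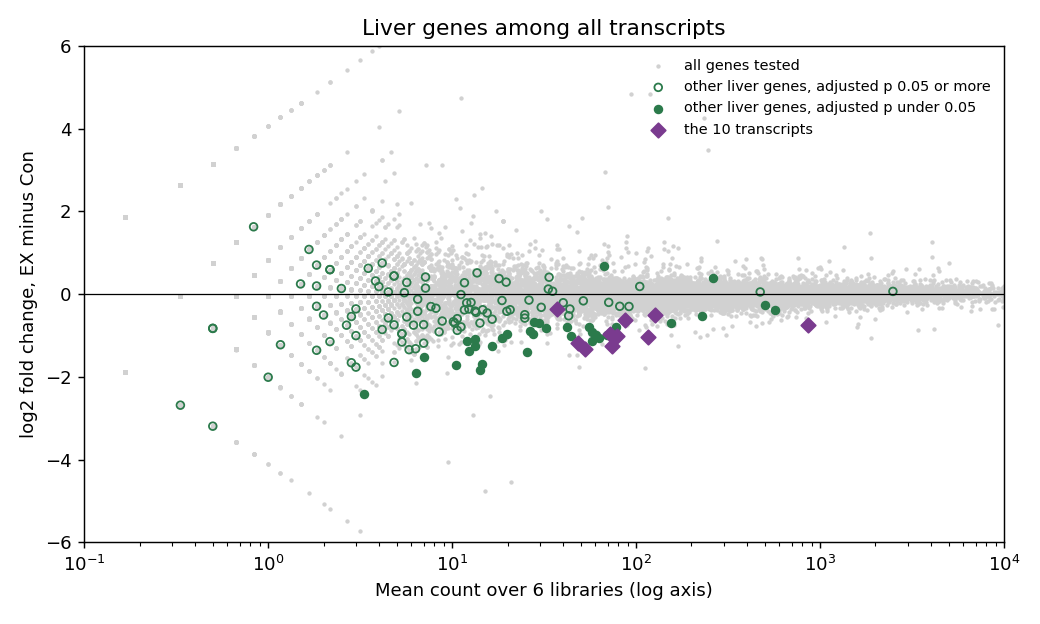
Log2 fold change (EX minus Con) against mean count over the 6 libraries (log axis), with all genes tested in grey, the 10 transcripts as purple diamonds and 128 other liver genes in green, filled where the adjusted p-value is under 0.05. Grey points outside the axes are not drawn. The diamonds all lie below 0, and 32 filled points lie below 0 and 2 above it.

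Of the 32 liver genes called lower, 14 were also called in each of the 6 fits that left out 1 library, and these 14 were among the 17 that DESeq2 also called. Among them were Adh1, Apob, Fga, Fgb, Fgg, Itih2, Mat1a, Mug1, Mug2, Serpina1a, Serpina1b, Serpina1d and Serpina3k. Cyp4a14 and Serpind1 were called in none of those 6 fits. Hrg was lost without EX replicate 2, and Abcb11, Slco1b2, Cyp2c29, Cyp3a25, Serpinf2 and Ugt1a1 were lost without EX replicate 1. Leaving out replicate 1 or 2 of either group cost Cyp3a25 and Ugt1a1 their calls, and Serpinf2 kept its call only in the fits without Con replicate 2 or 3. Slco1b2 was also lost without Con replicate 2, Abcb11 without EX replicate 2, and Vtn without EX replicate 3.

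Markers of other cells and organs moved in more than one direction, and their part in the results on liver genes was not tested. Of the 10 skeletal muscle markers, whose summed levels did not overlap between the groups, 4 were called higher in EX and 1 (Mb) lower. The 8 macrophage markers had a summed level of 40.5 to 44.5 CPM in Con and 74.5 to 81.7 in EX, with 6 called higher. Of 7 fat cell markers, 6 were called higher, among them Adipoq, and their summed level was 230.2 to 249.7 CPM in Con and 248.4 to 255.6 in EX, most of it Fabp4. Fat cells are also known to express Hp and Cyp2e1, the 2 liver-list genes that rose. The 8 endothelial markers had 693.0 to 704.0 CPM in Con and 609.8 to 635.1 in EX, with 3 called lower and 1 higher. The 8 markers of red blood cells and platelets had 241.9 to 266.3 CPM in Con and 265.3 to 293.1 in EX, with 2 called higher. Of the 10 kidney genes, 1 was in the table, with at most 0.0712 CPM in a library, and the 3 of 11 pancreas genes in the table summed to at most 0.253 CPM. The 5 of 10 intestine genes summed to 0.188 to 0.444 CPM in Con and 0.251 to 0.380 in EX, and the 2 of 7 keratinocyte genes to 1.42 to 2.25 and 1.45 to 1.97 CPM. The 7 genes of male accessory glands summed to at most 0.0712 CPM in Con and to 0.691 to 1.45 CPM in EX. Of these 7, 2 were called higher (Svs4 and Svs5), and 6 had all EX values above all Con values. In Con, 6 of these 7 had no count in any library, which allows up to 3 counts or 0.188 to 0.214 CPM per library, for counting error only.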

How the data were processed

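RNA of hind leg muscle from 3 Con and 3 EX mice was analysed, with 1 library per mouse. Per the methods, the authors sequenced the libraries in paired-end mode on a DNBseq instrument and matched filtered reads to GRCm39 with HISAT, while the submitters' processing notes list GRCm38.p6, cutadapt, featureCounts and MultiQC. Which build the deposited values rest on is therefore unclear. The authors deposited estimated counts, not normalized, and FPKM and TPM values normalized by length and depth, for each gene and library. Between 4.18% and 4.44% of the counts in a library were not whole, and 6 columns of group means were not used.

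Counts were rounded and tested with edgeR 4.0.16 (glmQLFit, glmQLFTest, TMM) in R 4.3.3 over all 16716 genes with at least 1 count and no other filter, with Benjamini-Hochberg adjustment and a threshold of 0.05. Levels are CPM, and FPKM where genes are compared. The common factor was fitted by likelihood ratio with edgeR's dispersions. The edgeR test and both tests of a common factor were run on simulated data, whose outcomes are not given here. For the tests of a common factor, the simulated counts were drawn with the fitted dispersions, which the tests then took as known. Error in estimating the dispersions was therefore not covered, and the p-values of those tests are not backed by this check. Libraries of 1 group differed by more than counting error (chi-square per degree of freedom 1.74 to 3.96 over 11742 genes), so each counted as 1 mouse.

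The 10 genes, the lists and the tests were chosen with earlier results of these data known. Named genes were, by rule, all 10, the other Serpina1 paralogs, the 10 liver-list genes highest in Con, the 12 with the largest changes called, the 20 largest decreases, and the 5 genes most alike. Other names were given after their values were seen. One gene that the rule names is not reported here.

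Alternatives were the scaling (DESeq2 size factors, or library totals), the filter (a mean of 1 FPKM, or filterByExpr), a replicate block, each library left out, DESeq2 1.42.0, limma 3.58.1 on log2(FPKM + 0.1) and log2(FPKM + 1), Poisson error, and the list without Serpina1c and Serpina1e. Promoters are RefSeq's for GRCm38.p6. No gene positions other than promoter windows are given.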

Additional observations from a re-analysis of the deposited data

How the results depend on the processing

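The 10 transcripts were lower in EX in every fit made, and their call changed for 2 of them. Without EX replicate 1, Serpina1e and Apoa1 lost their adjusted p-value under 0.05 (0.058 and 0.083), and without EX replicate 2 Serpina1e did (0.060). Between 7 and 9 of the 10 were called when each library was left out, and 8 of the 9 that had a mean of at least 1 FPKM. The other alternatives called 9. Over all genes, 497 of 16567 to 845 of 16607 were called lower without 1 library, and 958 of 10883 with the FPKM filter. As the 10 genes were picked on this contrast, their calls are a description only. Separate factors described the genes better than 1 common factor (p under 0.05) in each alternative run, with p-values of unevenness from 3.7e-06 to 1.4e-03 when each library was left out. With Poisson error alone in place of edgeR's dispersion, the chi-square p-value for the proportions within Con was 0.031, against 0.277.

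The count of other liver genes called lower was 13 of 39 with a mean of at least 1 FPKM and 17 with DESeq2, against 32, and 17 to 26 when each library was left out. Fewer genes were tested with that filter. For DESeq2 the cause was not tested. The 2 genes called higher stayed at 2 in number in all alternatives.

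Replicate numbers are shared by the groups, but deviations from the group means did not correlate for equal numbers (r = -0.05, -0.03 and -0.00463), so the libraries share only a number. With the replicate block in edgeR, 9 of the 10 genes and 29 other liver genes were called lower and 2 higher. Over all 16716 genes, 927 were lower and 929 higher under the block. The p-value of unevenness under the block was 1.2e-05.

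Over all genes, 997 were lower and 1016 higher in EX. The split was 1784 and 635 with library totals, which shift the median of genes with a mean count of at least 20 to -0.06, 764 and 355 with limma on log2(FPKM + 0.1), and 749 and 361 on log2(FPKM + 1). DESeq2 called 546 and 628. Without EX replicate 1, 2 or 3 the calls were 497 and 628, 580 and 710, and 535 and 613. Apoa2, Cyp3a11 and Cps1 rested on at most 89 counts per library, which limits their ratios.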

Other observations

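Liver genes stood among the largest decreases of the table without filling them. Of the 20 genes with the lowest log2 fold change among those with an adjusted p-value under 0.05 (edgeR's quasi-likelihood test) and a mean count of at least 20, 3 were among the 10 transcripts (Cyp3a11, Pzp and Cps1) and 3 were on the other liver lists (Itih2, Apob and Mug1). The other 14 included Clec3a, a gene of cartilage, at -4.54, Spp1 (osteopontin) at -1.77, Slc15a2 at -1.27 and Cish, a target of cytokine signalling, at -1.06. At that count level 10 and 39 genes of these lists were among 11742 genes.

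Genes whose log2 CPM followed the summed level of the 10 transcripts most closely over the 6 libraries were not liver genes. Outside every list they were Igfn1, Srrm2, Gpam, Myh2 and Cdc42bpb, each with a Pearson r of 0.998 over 6 libraries. Their log2 fold changes were -0.44, -0.21, -0.25, -0.75 and -0.27. The libraries fall into 2 groups that differ in this sum, so that the r is a description only, and 340 of 11738 genes had an r over 0.95. Fga, with an r of 0.991, was the closest gene of the liver lists and ranked 36th.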
